A study of Mus musculus with 9 samples.

Results

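Ovalbumin challenge was compared with saline challenge in lungs of wild-type mice, in 6 of the 9 libraries and for 17716 of the 55851 genes of the deposited table, those with a mean of at least 0.2 FPKM over the 9 libraries. FPKM is the number of reads on a gene scaled by the gene's length and the library's size. The study sequenced RNA of lung cells to follow allergic airway inflammation and the part played in it by DJ-1, the product of Park7. Both groups compared here were female C57BL/6J mice with the wild-type genotype, labelled total lung cells and a time of 7 weeks. One group received phosphate-buffered saline as its challenge (WT PBS, replicates 1, 2 and 3), the other ovalbumin, the egg white antigen (WT OVA, replicates 5, 6 and 9). The 3 other libraries were DJ-1 knockout mice challenged with ovalbumin. They counted towards the mean of 0.2 FPKM and the estimate of the spread, and are quoted for Park7 and Tmem150a. The labels state no dose, route, schedule of challenge or number of animals behind a library.

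Ovalbumin given to sensitised mice is a standard model of allergic asthma. T helper 2 cells and innate lymphoid cells release interleukin-4, interleukin-5 and interleukin-13. Interleukin-13 acts through the transcription factor STAT6 on airway epithelium, which then makes mucus, and on macrophages, which take up the alternative activation state. Interleukin-5 and the eotaxin chemokines bring in eosinophils.

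The 6 libraries held 20812192 to 29080130 reads, and 12636 to 12983 genes in each had an FPKM of at least 1. The summed FPKM of every WT OVA library (570483 to 602047) was above that of every WT PBS library (392285 to 551459). Markers of the tissue were present: the surfactant gene Sftpc ranged from 22975 to 39155 FPKM, the club cell gene Scgb1a1 from 20556 to 100231 and the leukocyte gene Ptprc from 19.3 to 39.8. Park7 was at 36.7 to 60.5 FPKM in the 6 wild-type libraries and at 3.96 to 7.29 in the knockout libraries. Spearman correlations across genes were 0.961 to 0.967 between WT OVA libraries, 0.952 to 0.967 between WT PBS libraries and 0.939 to 0.970 between the groups. The ranges overlapped, with means of 0.964, 0.962 and 0.957, and the 3 lowest values were those of WT PBS replicate 3 with the WT OVA libraries. WT OVA replicate 6 stood apart from replicates 5 and 9 in mucus and macrophage genes, and the results that rest on it are given with and without it.

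Over all genes the groups differed little beyond the spread between libraries. Of 17716 genes 1 passed (Benjamini-Hochberg adjusted p below 0.05, limma), a share of 0.00564%, and it was higher after ovalbumin. At an unadjusted p below 0.05 there were 646 genes higher and 500 lower, or 3.65% and 2.82% of those tested. The values of all 3 WT OVA libraries lay above those of all 3 WT PBS libraries for 1284 genes (7.25%) and below them for 1333 (7.52%). These shares depend on the scaling: after bringing each library to the same FPKM sum the median of all genes was -0.22 on the log2 scale, the unadjusted counts were 174 higher and 1349 lower, and the shares without overlap were 2.32% and 19.4%. Medians of lists are therefore to be read against 0.00, and those at equal sums against -0.22. With 3 libraries against 3 an exact two-sided permutation test of a single gene cannot give a p below 0.1. The labels do not say that the libraries are separate animals, so p-values measure only the spread between these libraries, which may be technical.

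The gene that passed was Tmem150a, which encodes a multi-pass membrane protein. Its FPKM was 0.121, 0.0944 and 0.441 in WT PBS replicates 1, 2 and 3, from 4, 3 and 21 reads. In WT OVA replicates 5, 6 and 9 it was 3.20, 2.28 and 2.20, from 95, 81 and 67 reads. The groups did not overlap, and the 3 WT OVA values lay close together. Tmem150a rose from 0.219 ± 0.193 to 2.56 ± 0.553 FPKM (SD, n = 3), a difference of 2.11 on the log2(FPKM + 0.5) scale (SE 0.23, adjusted p = 0.0431, limma). The threshold was missed in 12 of 17 other settings, with adjusted p from 0.000258 to 0.356. The knockout libraries, also challenged with ovalbumin, were at 0.113, 0.191 and 0.238 FPKM, within the range of the saline libraries. Its relatives Tmem150b (1.17 ± 0.215 and 1.36 ± 0.323 FPKM after saline and ovalbumin, SD, n = 3) and Tmem150c (0.847 ± 0.0489 and 0.865 ± 0.0604) differed by less than the spread between libraries. Both had the other sign at equal FPKM sums, where Tmem150c had a log2 difference of -0.17 without overlap. Both were above the median of all genes at equal sums, -0.22.

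The position of Tmem150a limits what its value means. The gene lies on chromosome 6 from 72355447 to 72359762 (GRCm38.p6, plus strand), and its last 49 bases overlap the end of Rnf181, a ubiquitin ligase gene on the minus strand. No label states whether counting used strand, so reads in the overlap cannot be assigned. Rnf181 varied by itself, at 0.884, 11.7 and 0.819 FPKM in the WT PBS libraries and 1.17, 4.88 and 1.48 in the WT OVA libraries, without following the groups. Other genes nearby ranged widely: Usp39 averaged 0.820 FPKM over the 9 libraries, Vamp5 0.476, Ggcx 0.461 and 0610030E20Rik 0.0869, but Vamp8 averaged 2.96, Mat2a 4.75 and Capg 123, and the median of the 712 tested protein-coding genes of the chromosome was 4.09. Vamp8, a vesicle fusion protein, also did not overlap, at 3.04, 3.14 and 2.11 FPKM after saline and 4.82, 4.15 and 5.48 after ovalbumin. Sftpb, the surfactant protein B gene at the start of the same stretch, averaged 58.7 FPKM, while a predicted gene with saposin domains, placed by the table on a patch contig of the assembly, covers all 9762 bases of the Sftpb coordinates and averaged 77.9. Whether reads of Tmem150a are shared with a second copy of this stretch was not tested.

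**Figure D1:**
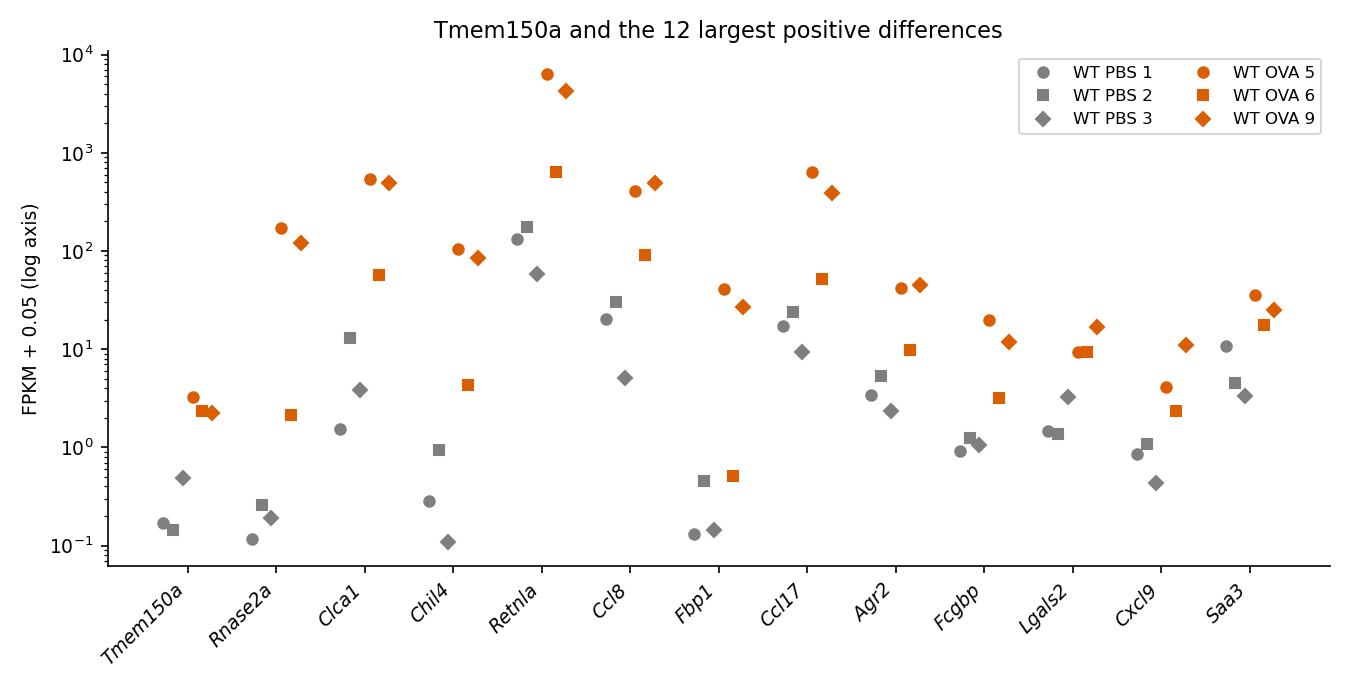
Level of Tmem150a and of the 12 genes with the largest positive log2 differences among genes whose groups did not overlap. The ranking took genes with a group mean of at least 1 FPKM and left out predicted genes and receptor segments. Each point is 1 library (FPKM + 0.05, log axis; grey, saline; orange, ovalbumin; marker shape, replicate). Orange squares, WT OVA replicate 6, lie below the other orange points in 12 of these 13 genes, as for Clca1 (56.4 against 543 and 487).

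Airway mucus genes and other targets of interleukin-13 in epithelium had mostly positive differences. In this list 21 of 22 tested members had positive differences and 15 did not overlap between the groups, all higher, or 68.2% against 7.25% of all genes. The median was 1.02, and 0.757 at equal FPKM sums, where 11 members did not overlap higher (50% against 2.32% of all genes) and 1 lower (4.55% against 19.4%). With 1 library left out in turn it was between 0.821 and 1.12. No member passed over all genes in the fit of all libraries (limma), against 15 at an unadjusted p below 0.05. Clca1, a goblet cell protein that is cut outside the cell and shapes the mucus gel, was at 1.5, 12.9 and 3.82 FPKM after saline and 543, 56.4 and 487 after ovalbumin. Muc5ac, the gel-forming mucin that goblet cells add in allergy, was at 0.257, 0.154 and 0.215 FPKM after saline and 4.46, 0.556 and 3.85 after ovalbumin. In both genes replicate 6 was the lowest of the ovalbumin libraries and still above every saline library. Muc5b, the mucin made in the resting airway, differed less, with 6.11, 3.94 and 6.55 FPKM after saline and 13.8, 9.13 and 10.7 after ovalbumin.

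Genes that fold, cross-link and carry mucus proteins had the same shape. Agr2, a disulfide isomerase needed for mucin folding, was at 3.37, 5.25 and 2.32 FPKM after saline and 42.3, 9.74 and 45.2 after ovalbumin (log2 difference 2.77, SE 0.51). Fcgbp, a mucin-binding protein, was at 0.874, 1.21 and 1.00 FPKM after saline and 19.6, 3.13 and 11.7 after ovalbumin. Itln1, a lectin of goblet cells, averaged 0.231 ± 0.212 and 3.16 ± 2.16 FPKM (SD, n = 3), and the trefoil peptide Tff2 averaged 75.4 ± 34.4 and 301 ± 98.0. The transcription factors of the goblet cell state were low in level: Spdef was at 1.32, 1.61 and 1.02 FPKM after saline and 4.18, 2.37 and 2.58 after ovalbumin, and Foxa3 at 0.184, 0.311 and 0.399 against 1.38, 0.664 and 1.35. Some members did not show the low replicate 6. Pigr, which carries IgA across epithelium, was at 13.7, 13 and 12.2 FPKM after saline and 34.0, 29.5 and 23.3 after ovalbumin, and Gp2, a receptor of microbe-sampling epithelium, at 2.81, 5.44 and 4.90 against 11.1, 12.8 and 7.25. Slc26a4, the anion exchanger pendrin, overlapped, because replicate 6 at 1.32 FPKM lay within the saline range of 1.02 to 2.42 while replicates 5 and 9 were at 7.94 and 5.48.

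Genes of alternative macrophage activation had larger single differences and a wider spread. Of 20 tested members 18 had positive differences and 8 did not overlap, all higher, or 40% against 7.25% of all genes. The list's median was 1.04 (0.727 to 1.21 with 1 library left out), and 0.736 at equal FPKM sums, where 6 members did not overlap higher, or 30% against 2.32%. Retnla, a secreted resistin-like protein, was at 132, 174 and 58.7 FPKM after saline and 6317, 630.5 and 4279 after ovalbumin. Chil3, a chitinase-like protein abundant in alveolar macrophages, was at 1998, 2036 and 1374 FPKM after saline and 10783, 2101 and 11715 after ovalbumin, so that replicate 6 barely exceeded the saline libraries. Its relative Chil4 was nearly absent after saline (14, 51 and 5 reads) and had 5687, 274 and 4699 reads after ovalbumin. Rnase2a, an eosinophil-associated ribonuclease gene known earlier as Ear11, had 1, 3 and 3 reads after saline and 2289, 33 and 1621 after ovalbumin, the largest log2 difference of the named genes at 5.89 (SE 1.35).

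Replicate 6 lay in or just above the saline range in other macrophage genes. Arg1, the arginase of alternatively activated macrophages, was at 3.68, 6.91 and 2.47 FPKM after saline and 30.6, 3.33 and 17.7 after ovalbumin. The macrophage elastase Mmp12, named here after its values were seen, was at 2.24, 3.90 and 1.28 FPKM after saline and 20.1, 1.92 and 25.1 after ovalbumin. Fbp1, an enzyme of gluconeogenesis that is no member of the list, was at 0.0825, 0.401 and 0.0956 FPKM after saline and 41.1, 0.462 and 26.7 after ovalbumin. Ch25h, which makes 25-hydroxycholesterol, was at 8.40, 5.83 and 10.5 against 21.2, 12.9 and 19.9 FPKM. Replicate 6 was again the lowest ovalbumin library, and it lay above every saline library. In bulk samples more cells of a type and more RNA per cell cannot be told apart.

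Without WT OVA replicate 6, 14 genes passed (adjusted p below 0.05, limma), or 0.079% of those tested, and all 14 were higher after ovalbumin. They were Chil4, Fcgbp, Agr2, Rnase2a, Clca1, Retnla, Itln1, Muc5ac, Tmem150a, Fbp1, Capn9, Mrgprg, Gm7079 and Gm48449, with log2 differences from 1.63 to 7.82. Of these 6 are on the mucus list and 3 on the macrophage list. Adjusted p was 9.18e-05 for Chil4, 0.00177 for Fcgbp, 0.00451 for Agr2, 0.0046 for Retnla and 0.0171 for Muc5ac. Replicate 6 lay below replicates 5 and 9 in 13 of the 14 genes and above every saline library in 13, with Tmem150a and Gm48449 the exceptions in turn. The first of these counts is largely set by choosing genes that pass without this library, and is no separate result. Capn9, a calpain protease of mucosal epithelium, had 0, 1 and 2 reads after saline and 110, 4 and 70 after ovalbumin. Mrgprg, a receptor of the Mas-related family, had 0, 6 and 0 reads after saline and 65, 14 and 51 after ovalbumin. The 2 predicted genes rest on few reads, at most 11 for Gm7079 and 5 for Gm48449.

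A different pattern, in which 1 ovalbumin library was not above the saline range, was more frequent for replicate 6 than for the other ovalbumin libraries. In 27 genes replicates 5 and 9 were at least 2 times the highest saline value while replicate 6 was not above it, against 12 genes in which replicate 5 and 9 genes in which replicate 9 was the exception. Of the 27 genes 1 is on the mucus list and 2 are on the macrophage list. In the opposite direction, with 2 libraries at no more than 1/2 of the lowest saline value, the numbers were 14, 15 and 14. By the same rules WT PBS replicates 1, 2 and 3 were the exception in 4, 6 and 11 genes with the other saline libraries higher. With these lower, the numbers were 18, 25 and 16. The SD of log2 deviations from the group mean was 0.293 for WT OVA replicate 6, and 0.311 and 0.312 for WT PBS replicates 2 and 3.

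**Figure D2:**
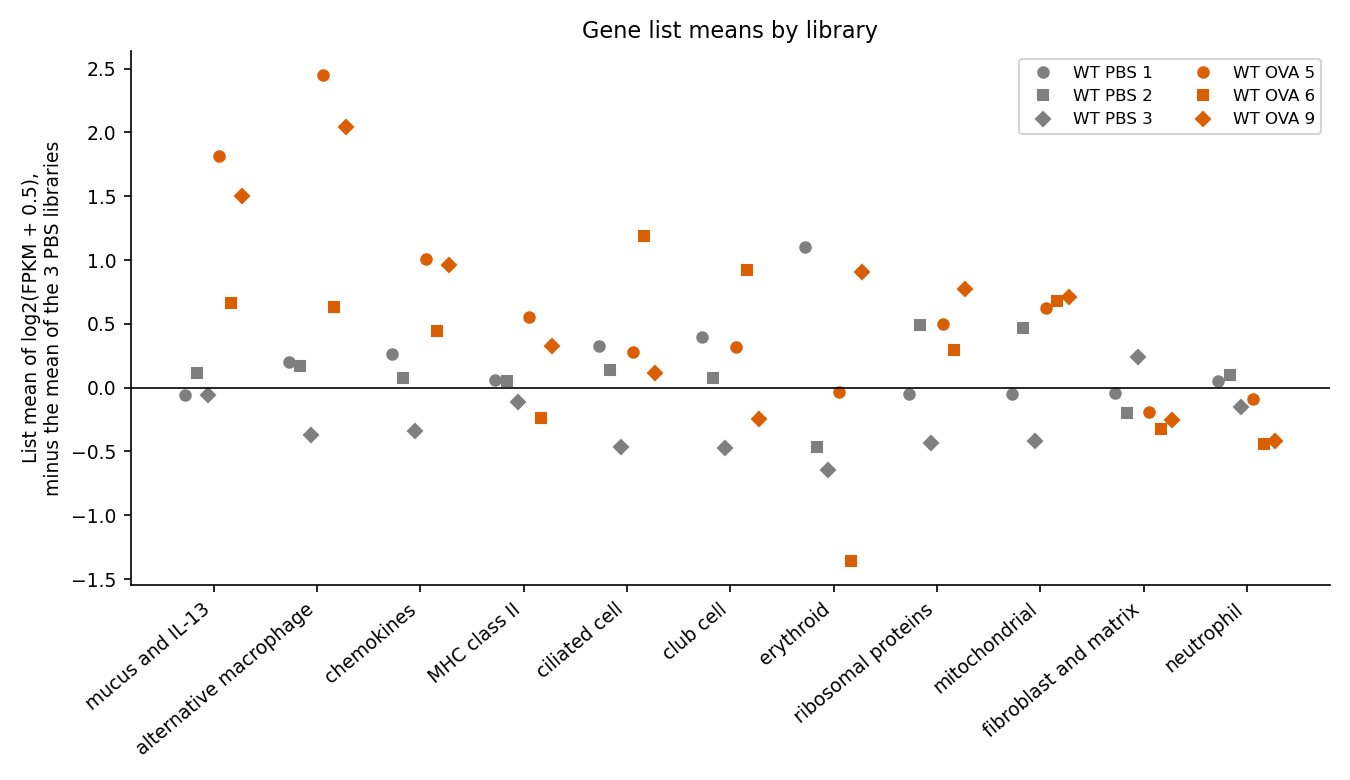
Mean of log2(FPKM + 0.5) over the members of 11 gene lists in each library, minus the mean of the 3 saline libraries. WT OVA replicate 6 (orange squares) is lower than the other ovalbumin libraries in mucus (0.664 against 1.82 and 1.5), macrophage and chemokine genes and higher in ciliated (1.19 against 0.277 and 0.114) and club cell genes.

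STAT6 binds the palindrome TTCNNNNGAA, which reads the same on both strands, and promoters of the genes with the largest differences were searched for it in the 250 bases before the RefSeq gene start (GRCm38.p6). Of all 32851 windows 5.85% held a match, and 6.76% of genes had at least 1 window with it. Among the 12 genes with the largest positive differences 11 had an entry and 2 of these a match, Retnla and Ccl17. Of the 14 genes that passed without replicate 6, 10 had an entry and 2 a match, Retnla and Capn9, and among the 12 genes with the largest negative differences 6 had an entry and 0 a match. The 3 windows with a match are shown because they are where the letters of a STAT6 site and a higher level after ovalbumin coincide. They lie at chr16:48842359-48842608 (Retnla), chr8:94810203-94810452 (Ccl17) and chr8:124575861-124576110 (Capn9), all on the plus strand, printed 5′ to 3′ with the match in capitals.
Retnla: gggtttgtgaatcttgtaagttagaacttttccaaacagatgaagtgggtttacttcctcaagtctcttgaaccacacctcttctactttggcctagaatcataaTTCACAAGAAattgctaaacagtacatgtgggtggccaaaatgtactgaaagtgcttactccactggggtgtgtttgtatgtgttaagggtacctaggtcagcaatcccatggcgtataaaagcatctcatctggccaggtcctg
Ccl17: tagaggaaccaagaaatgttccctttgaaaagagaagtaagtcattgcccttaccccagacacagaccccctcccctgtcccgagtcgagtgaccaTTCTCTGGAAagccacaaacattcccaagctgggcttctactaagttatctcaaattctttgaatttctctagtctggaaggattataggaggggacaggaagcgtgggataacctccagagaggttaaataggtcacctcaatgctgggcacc
Capn9: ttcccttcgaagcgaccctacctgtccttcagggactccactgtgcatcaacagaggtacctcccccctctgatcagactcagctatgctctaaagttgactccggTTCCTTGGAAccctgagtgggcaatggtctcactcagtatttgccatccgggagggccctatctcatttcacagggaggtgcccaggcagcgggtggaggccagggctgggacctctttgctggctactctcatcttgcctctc
In the 3 windows the match began 145, 154 and 144 bases before the gene start. A match describes the letters and is no measurement of binding.

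Chemokines, the secreted proteins that draw in leukocytes, had mostly positive differences. Of 30 tested members 22 had positive differences, 11 did not overlap higher and 1 lower, or 36.7% and 3.33% against 7.25% and 7.52% of all genes. The median was 0.739 (0.590 to 0.869 with 1 library left out). At equal FPKM sums it was 0.426 with 7 higher and 3 lower without overlap, or 23.3% and 10% against 2.32% and 19.4% of all genes. Ccl8, a ligand for receptors of T helper 2 cells, was at 20.2, 30.5 and 5.09 FPKM after saline and 412, 90.6 and 487 after ovalbumin (log2 difference 4.11, SE 0.86, adjusted p = 0.624, limma). Ccl17, a ligand of the T helper 2 receptor CCR4, was at 17.0, 23.9 and 9.30 FPKM after saline and 644, 52.3 and 392 after ovalbumin. Ccl22, the other CCR4 ligand, differed less, at 14.3, 12 and 7.60 against 32.2, 18.6 and 18.3. Among eotaxins, Ccl11 was at 8.31, 8.96 and 5.98 FPKM after saline and 18.7, 10.4 and 16.4 after ovalbumin, and Ccl24 at 10.1, 3.72 and 1.78 against 43.2, 5.43 and 13.7, where replicate 6 lay within the saline range. The list also held chemokines outside type 2 immunity: Cxcl9, a ligand of CXCR3 on type 1 lymphocytes, was at 0.807, 1.03 and 0.388 FPKM after saline and 4.04, 2.29 and 11.1 after ovalbumin, and the neutrophil attractant Cxcl3 at 5.59, 4.30 and 4.63 against 15.7, 10.3 and 10.8. Cxcl12, a homeostatic chemokine of stroma, was the member without overlap on the lower side (8.5 ± 1.09 and 6.77 ± 0.416 FPKM, SD, n = 3).

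The type 2 cytokines themselves were scarce transcripts. Il13 had 12, 10 and 9 reads after saline and 65, 21 and 46 after ovalbumin, or 0.466, 0.404 and 0.243 against 2.81, 0.761 and 1.94 FPKM. Il5, the eosinophil growth factor, overlapped, with 0.944, 2.22 and 0.529 against 2.44, 2.21 and 3.18 FPKM. Il4 was at 0.267, 0.476 and 0.504 against 1.66, 0.605 and 0.829 FPKM. The epithelial alarmin Il33 did not overlap either, but the gap was small, with 26.9, 32.4 and 30.2 against 34.3, 33.9 and 33.1 FPKM and a log2 difference of 0.18 (SE 0.24). At equal FPKM sums it overlapped and its log2 difference was -0.13, against a median of -0.22 for all genes. In the list of type 2 cytokines and alarmins 12 of 14 tested members had positive differences and 4 did not overlap, all higher (28.6% against 7.25% of all genes), but the median was 0.224. At equal FPKM sums the median was 0.0193, with 1 member not overlapping higher and 2 lower, or 7.14% and 14.3% against 2.32% and 19.4% of all genes. The eosinophil list had 7 of 9 tested members with positive differences and a median of 0.429, or 0.163 at equal FPKM sums. In it 1 member did not overlap higher and 0 lower, or 11.1% and 0% against 7.25% and 7.52% of all genes. At equal sums 1 did not overlap in each direction (11.1% each, against 2.32% and 19.4%). Of its granule genes, Epx was near the detection limit in all wild-type libraries, and Prg2 in the saline libraries and WT OVA replicate 6. Prg2 had the highest log2 difference of the list, 1.64 (SE 0.89). Prg2, the granule major basic protein, had 3, 6 and 9 reads after saline and 77, 10 and 36 after ovalbumin. Epx, the eosinophil peroxidase, had at most 3 reads in a wild-type library.

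Acute inflammatory genes were mixed. In the list of interleukin-1, tumour necrosis factor and interleukin-6 genes 7 of 18 members had positive and 11 negative differences, and 4 did not overlap higher and 3 lower, or 22.2% and 16.7% against 7.25% and 7.52% of all genes. The median was -0.09, and -0.39 at equal FPKM sums. There 3 did not overlap higher and 7 lower, or 16.7% and 38.9% against 2.32% and 19.4% of all genes. The members named next were all without overlap on the higher side. Saa3, an acute phase protein, was at 10.6, 4.43 and 3.26 FPKM after saline and 35.5, 17.6 and 25.3 after ovalbumin. Il1a, the interleukin-1 released by damaged cells and macrophages, was at 123, 94.7 and 71.1 FPKM after saline and 298, 181 and 316 after ovalbumin. Il6 was at 35.9, 52.6 and 30.1 against 138, 55.3 and 113 FPKM. Outside the lists, Lgals2, a galectin, was at 1.42, 1.32 and 3.24 FPKM after saline and 9.42, 9.22 and 16.6 after ovalbumin (adjusted p = 0.286, limma). Replicate 6 was close to replicate 5 in this gene.

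**Figure D3:**
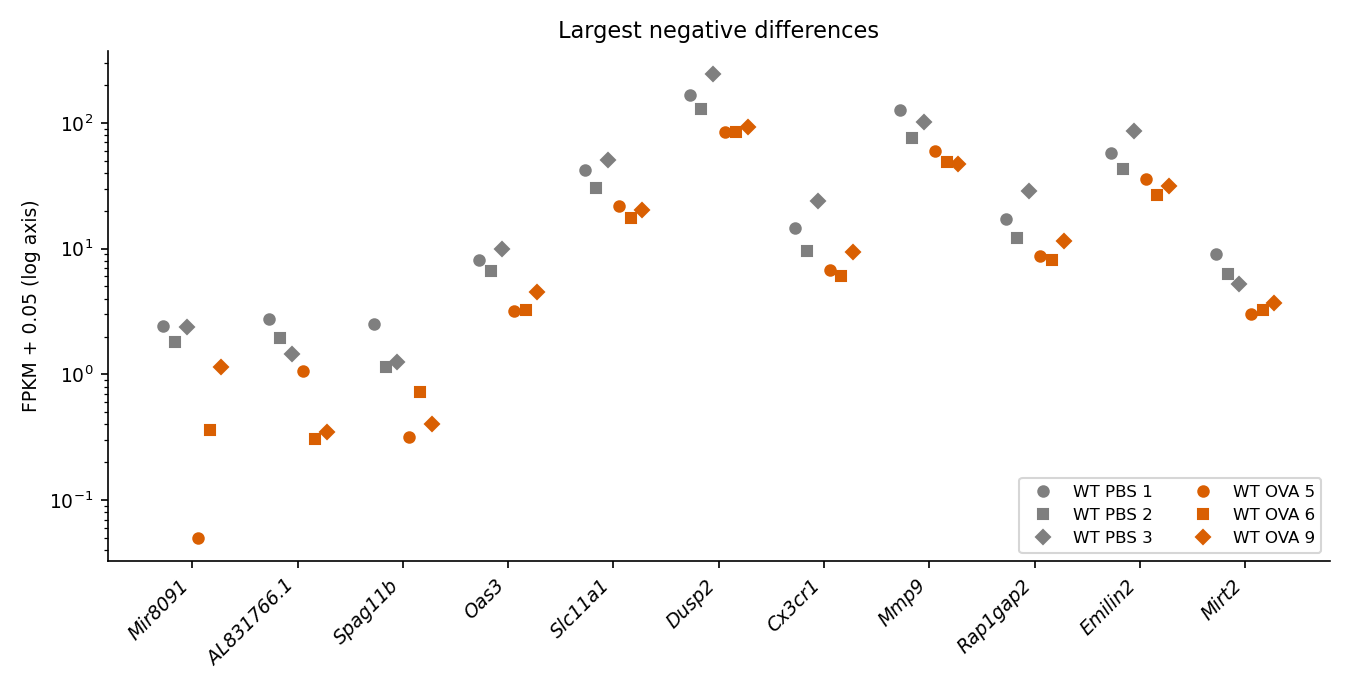
Level of 11 of the 12 genes with the largest negative log2 differences among genes whose groups did not overlap, 1 point a library (FPKM + 0.05, log axis; grey, saline; orange, ovalbumin). The ranking took genes with a group mean of at least 1 FPKM and left out predicted genes and receptor segments. The ovalbumin points lie below the saline points with less distance than in the plot of positive differences, from -1.60 for Mir8091 to -0.93 for Mirt2 on the log2 scale.

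Negative differences were smaller than positive ones among the 12 largest of each direction. Both sets were ranked among genes without overlap and with a group mean of at least 1 FPKM, leaving out predicted genes and receptor segments. Over all tested genes the lowest log2 difference was -3.07 and the highest 5.89. In the lower direction 0 genes passed (limma), against 500 at an unadjusted p below 0.05 and 0 with limma-voom. The largest of the 12, Mir8091 (7, 5 and 10 reads after saline, 0, 1 and 3 after ovalbumin) and the unnamed transcript AL831766.1, rest on few reads. Spag11b, a defensin-like gene, was at 2.45, 1.09 and 1.20 FPKM after saline and 0.269, 0.677 and 0.351 after ovalbumin. The better measured ones included genes of monocytes and neutrophils. Cx3cr1, the fractalkine receptor of patrolling monocytes, was at 14.5, 9.49 and 23.7 FPKM after saline and 6.75, 6.01 and 9.34 after ovalbumin. Slc11a1, a metal transporter of phagocytes, was at 42.4, 30.4 and 51.0 FPKM after saline and 21.6, 17.5 and 20.1 after ovalbumin. Dusp2, a phosphatase of activated leukocytes, was at 167, 129 and 244 against 84.5, 84.1 and 93.1 FPKM. Rap1gap2, a regulator of Rap GTPases, Emilin2, a matrix glycoprotein, and the noncoding RNA Mirt2 each had a log2 difference of -0.93.

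Interferon-stimulated genes split within the list. Of 22 members 15 had negative differences, 5 did not overlap lower and 1 higher, or 22.7% and 4.55% against 7.52% and 7.25% of all genes. The median was -0.11, and -0.41 at equal FPKM sums with 7 lower (31.8% against 19.4%) and 0 higher. Its sign rested on single libraries: the median was 0.05 without WT PBS replicate 2, -0.01 without WT OVA replicate 6 and -0.39 without WT OVA replicate 9. Oas3, which makes the 2-5A signal that activates RNase L, was at 8.03, 6.53 and 9.83 FPKM after saline and 3.15, 3.19 and 4.44 after ovalbumin (log2 difference -1.07, SE 0.23, adjusted p = 0.624, limma). Its neighbour Oas2 was at 4.48, 3.75 and 4.75 against 2.36, 1.77 and 2.65 FPKM. Rsad2, the antiviral enzyme viperin, was at 7.68, 8.46 and 5.94 against 3.18, 3.88 and 4.96 FPKM, and Irf7, the transcription factor of type I interferon responses, at 31.2, 31.2 and 30.6 against 19.1, 15.0 and 25.6. Isg15 overlapped (109 ± 46.1 and 122 ± 45.5 FPKM, SD, n = 3), and Gbp2, a guanylate-binding protein induced by interferon-gamma, was the member without overlap on the higher side at 10.6, 14.2 and 13.4 against 17.2, 14.4 and 32.1.

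Marker lists of leukocytes described which cells' transcripts were higher or lower. Among 15 neutrophil genes 11 had negative differences and 5 did not overlap, all lower, or 33.3% against 7.52% of all genes. The median was -0.28, and -0.47 without WT OVA replicate 5. At equal FPKM sums it was -0.59, and 8 members did not overlap lower, or 53.3% against 19.4%. Mmp9, a gelatinase of neutrophil granules, was at 126, 75.6 and 102 FPKM after saline and 60.0, 49.2 and 46.5 after ovalbumin, and Csf3r, the receptor of the neutrophil growth factor, at 169, 111 and 170.2 against 84.5, 79.1 and 76.3. Monocyte and interstitial macrophage genes had 8 of 18 positive and 10 negative differences (median -0.04, and -0.34 at equal sums). Cx3cr1 was among 5 that did not overlap lower, and 1 did not overlap higher, or 27.8% and 5.56% against 7.52% and 7.25% of all genes. With equal sums 8 did not overlap lower and 0 higher, or 44.4% and 0% against 19.4% and 2.32%. Complement C1qb had a positive difference but overlapped, at 189, 144 and 71.6 FPKM after saline and 310.4, 162 and 216 after ovalbumin. Alveolar macrophage genes had a median of 0.457 (0.147 at equal FPKM sums) with 12 of 15 positive, led by Chil3 and by Car4 at 34.7, 43.4 and 30.5 against 112, 52.1 and 121 FPKM. Car4, a carbonic anhydrase, is also a marker of lung capillaries and the only one of 17 endothelial genes without overlap on the higher side (5.88% against 7.25% of all genes). Of these 17 genes 13 had negative differences and 2 did not overlap lower, or 11.8% against 7.52%. Their median was -0.24, and -0.52 at equal sums, where 7 did not overlap lower and 1 higher. Those shares were 41.2% and 5.88% against 19.4% and 2.32% of all genes. B cell genes had 12 of 14 negative differences (median -0.24, and -0.52 at equal sums), with a median of -0.12 without WT PBS replicate 3 or without WT OVA replicate 6. Immunoglobulin and J chain genes had 10 of 13 positive differences, but 1 did not overlap higher and 1 lower (7.69% each, against 7.25% and 7.52% of all genes). Their median of 0.483 was 0.172 at equal sums, 0.292 without WT PBS replicate 3, 0.146 without WT OVA replicate 5 and 0.243 without WT OVA replicate 9. Jchain, which joins secreted IgA and IgM, was at 47.1, 58.6 and 20.8 FPKM after saline and 94.2, 47.9 and 101 after ovalbumin. The median of 21 T cell genes was 0.03 (-0.26 at equal sums), of 12 natural killer genes 0.06 (-0.23), of 12 dendritic cell genes 0.118 (-0.10) and of 10 mast cell and basophil genes -0.12 (-0.38). Without WT OVA replicate 9 the T cell, natural killer and mast cell medians had the other sign (-0.08, -0.25 and 0.03), as had, without WT PBS replicate 1, the T cell (-0.04) and natural killer (-0.06) medians and, without WT PBS replicate 3, the natural killer median (-0.15).

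Matrix genes of fibroblasts had mostly negative differences, with 0 past the threshold. Of 20 members 15 had negative differences and 8 did not overlap lower, or 40% against 7.52% of all genes, with a median of -0.30, which was -0.17 without WT PBS replicate 3 and -0.48 without WT PBS replicate 2. At equal FPKM sums the median was -0.56, and 11 did not overlap lower, or 55% against 19.4%. Col6a3, a chain of collagen VI, was at 5.33, 4.73 and 8.12 FPKM after saline and 3.07, 3.40 and 2.60 after ovalbumin, and the microfibril protein Fbn1 at 8.28, 6.39 and 12.2 against 5.05, 5.31 and 4.94. Timp1, an inhibitor of matrix proteases, went the other way without overlap, at 17.3, 14.5 and 11.4 against 43.2, 17.5 and 30.0 FPKM. The matrix genes are long, with a median length of 7935 bases against 3436 for all genes, and with the length trend of each library removed their median was -0.23. Immediate early genes, which respond within minutes to stimulation and to tissue handling, had 16 of 20 negative differences, and 5 did not overlap lower and 2 higher, or 25% and 10% against 7.52% and 7.25% of all genes. Their median was -0.34, which was -0.14 without WT PBS replicate 3 and -0.54 without WT PBS replicate 2. At equal sums it was -0.62, and 6 did not overlap lower, or 30% against 19.4%. Nr4a1 was at 626, 417 and 929.8 FPKM after saline and 414, 403 and 382 after ovalbumin. Notch genes had 13 of 14 negative differences with 2 without overlap, or 14.3% against 7.52% of all genes (median -0.24, and -0.12 without WT PBS replicate 3). At equal sums their median was -0.48, and 4 did not overlap lower, or 28.6% against 19.4%. Smooth muscle genes had 12 of 13 negative differences with 1 without overlap, a share of 7.69% that was near that of all genes (median -0.22). At equal sums their median was -0.44, and 5 did not overlap lower, or 38.5% against 19.4%.

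**Figure D4:**
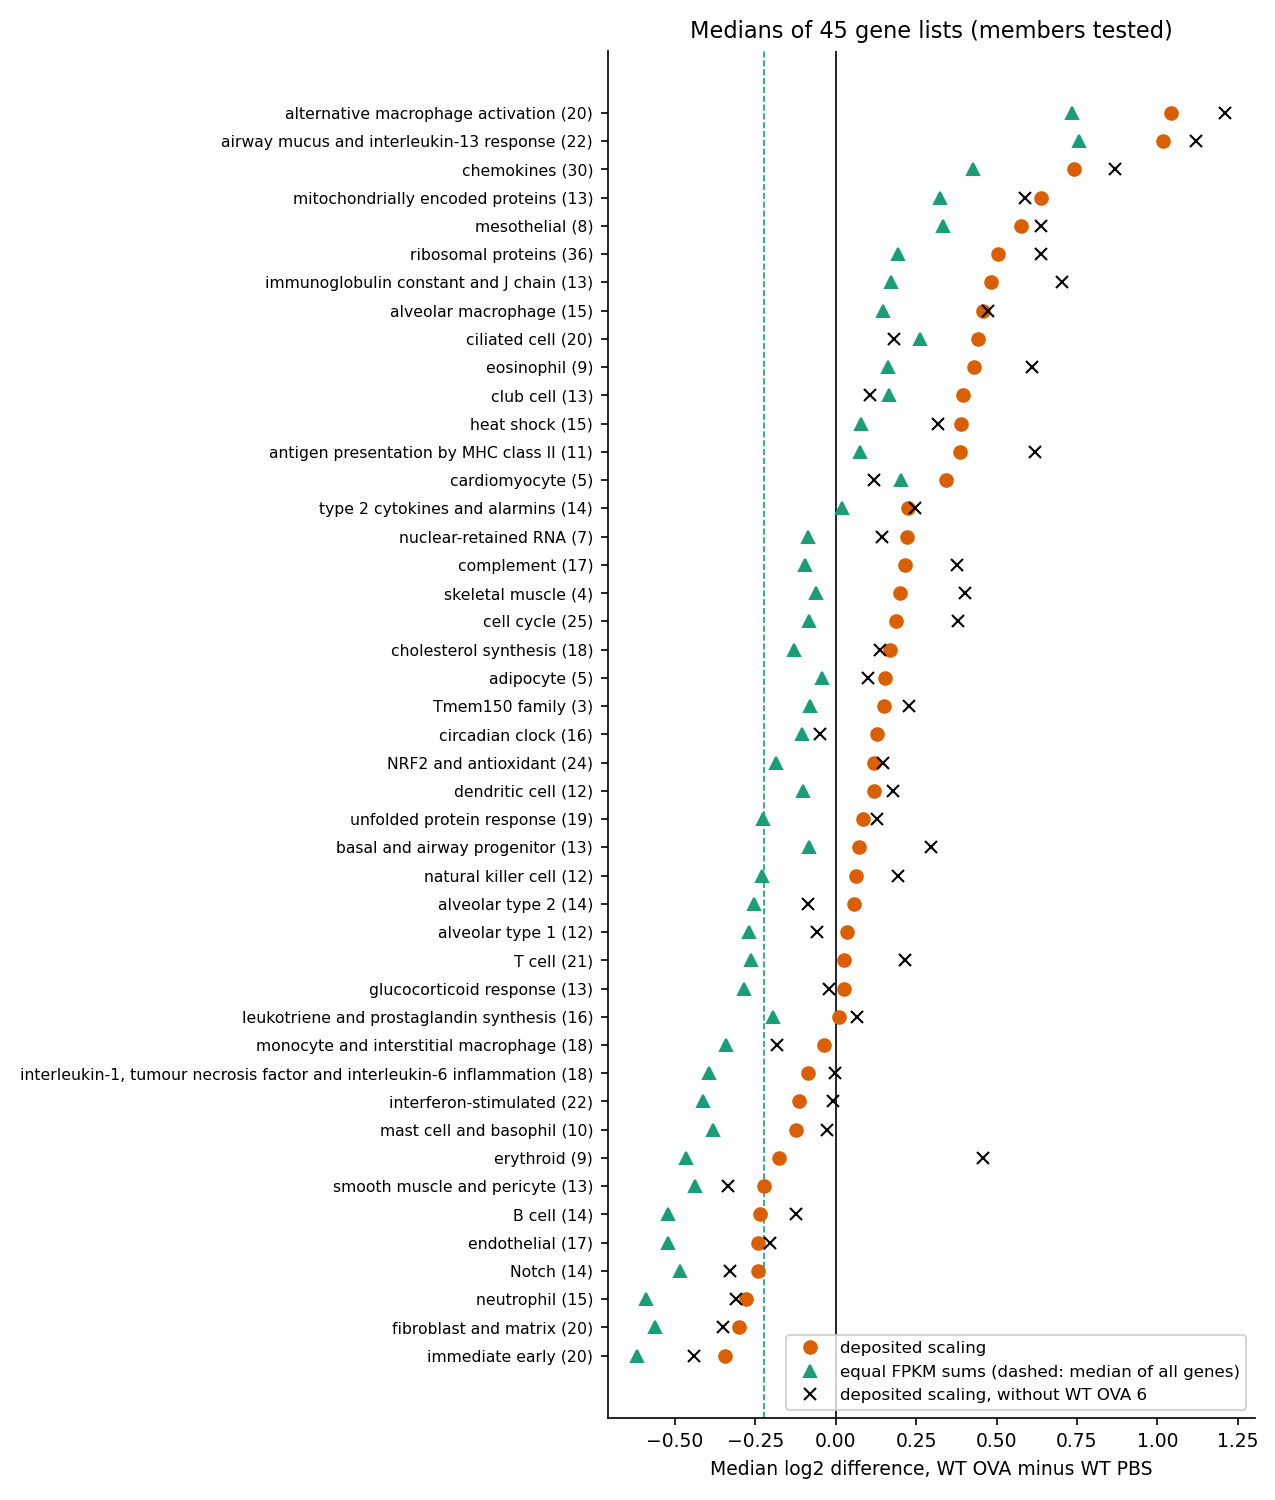
Median log2 difference of the tested members of each of 45 gene lists (number in brackets) at the deposited scaling (orange), at equal FPKM sums (green; dashed line, median of all genes) and without WT OVA replicate 6 (crosses). Macrophage (1.04), mucus (1.02) and chemokine (0.739) lists have the highest medians and stay positive in all 3, and the crosses of erythroid, ciliated and club cell genes lie far from the orange points.

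Mitochondrially encoded, ribosomal protein and heat shock genes had positive differences as groups, with 0 members past the threshold. All 13 mitochondrially encoded protein genes had positive differences, and 10 did not overlap, or 76.9% against 7.25% of all genes (8, or 61.5% against 2.32%, at equal FPKM sums). Their median was 0.638 (0.324 at equal sums, 0.446 to 0.827 with 1 library left out). The cytochrome oxidase subunit mt-Co1 was at 7816, 12716 and 6465 FPKM after saline and 13168, 13242 and 15066 after ovalbumin. All 36 cytosolic ribosomal protein genes had positive differences as well, with a median of 0.506 (0.193 at equal sums, 0.299 without WT PBS replicate 3 and 0.783 without WT PBS replicate 2), yet 0 were without overlap, and the list mean of WT PBS replicate 2 (9.60) lay between those of WT OVA replicates 6 (9.40) and 5 (9.61). Heat shock genes had 12 of 15 positive differences and 7 without overlap, or 46.7% against 7.25% of all genes (1, or 6.67% against 2.32%, at equal sums), with a median of 0.390 (0.0788 at equal sums). They included Hspa1a at 8.79, 14.4 and 16.0 against 18.9, 26.1 and 23.6 FPKM and the constitutive chaperone Hspa8 at 244, 339 and 243 against 437, 439 and 527.

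Log2 differences moved with gene length. The median length was 784 bases for mitochondrial, 1800 for ribosomal and 2967 for heat shock genes, against 3436 for all genes. Among protein-coding genes the median log2 difference was 0.384 for the 466 genes shorter than 1000 bases, 0.229 for 1676 genes of 1000 to 2000 bases, 0.0342 for 4331 genes of 2000 to 4000, -0.073 for 5114 genes of 4000 to 8000 and -0.13 for 2310 genes of 8000 or more. The share without overlap on the higher side was 16.7% in the shortest class and 2.81% in the longest. WT PBS replicate 3 had the steepest trend, from -0.50 to 0.24 against the mean of the 6 libraries, and WT OVA replicate 6 was flat. With the trend removed in each library the medians were 0.453 for mitochondrial, 0.407 for ribosomal and 1.05 for mucus genes. The part of length in the ribosomal and mitochondrial differences was not tested beyond this.

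**Figure D5:**
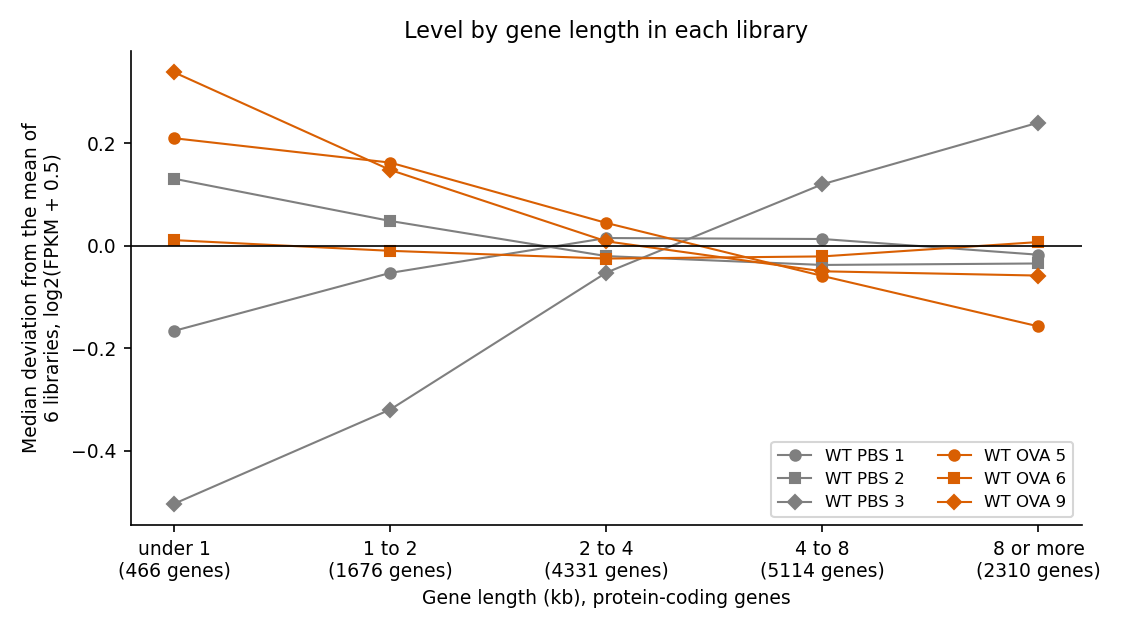
Median deviation of log2(FPKM + 0.5) from the mean of the 6 wild-type libraries in 5 classes of gene length, protein-coding genes only; grey lines, saline; orange lines, ovalbumin. WT PBS replicate 3 runs from -0.50 in the shortest class to 0.24 in the longest, and WT OVA replicates 5 and 9 slope the opposite way.

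Markers of other cell types varied between libraries, and some did not overlap between the groups. Ciliated cell genes had 20 of 20 positive differences and 0 without overlap, and their median of 0.443 (0.261 at equal sums) was 0.183 without WT OVA replicate 6 and 0.266 without WT PBS replicate 3. Foxj1, the master regulator of motile cilia, was at 20.2, 10.4 and 6.69 FPKM after saline and 21.9, 43.9 and 15.4 after ovalbumin. Club cell genes had 10 of 13 positive differences and 0 without overlap (median 0.396, and 0.167 at equal sums). Their median was 0.107 without WT OVA replicate 6, 0.241 without WT PBS replicate 3, 0.680 without WT PBS replicate 1 and 0.669 without WT OVA replicate 9, with Scgb1a1 at 58505, 40324 and 20556 against 65233, 100231 and 31596 FPKM. Haemoglobin and other red cell genes ran from 273 FPKM of Hba-a1 in WT OVA replicate 6 to 3804 in WT PBS replicate 1. Mesothelial genes had 8 of 8 positive differences and 2 without overlap, or 25% against 7.25% of all genes (0 at equal sums), with Msln at 15.5, 7.55 and 30.7 against 38.6, 33.3 and 36.1 FPKM. Squamous epithelium genes, a list chosen after their values were seen, stood out in 1 library: Krt13 was at 38.2 FPKM and Krt4 at 29.6 in WT OVA replicate 5, and both were at most 0.343 in the other 5. The atrial muscle gene Myl7 was at 2.70, 4.38 and 4.74 FPKM after saline and 9.71, 7.03 and 8.96 after ovalbumin. It was 1 of 2 cardiomyocyte genes without overlap on the higher side among the 5 tested, with 1 lower. These shares were 40% and 20% against 7.25% and 7.52% of all genes. The other 5 of 10 were too low to be tested. The part of these other cell types in the differences above was not tested.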

How the data were processed

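RNA of lung cells was sequenced in 9 libraries, and the 6 wild-type libraries were compared. Trimmomatic, HISAT2, HTSeq and the build GRCm38.p6 are named in the submitters' processing notes, without versions or settings. The authors deposited FPKM per gene with gene lengths, per the file headers. FPKM times length gave whole reads for 100% of values (up to 1000 reads, tolerance 0.01). The library sizes the authors divided by equalled median-of-ratios size factors, not read totals. Values were analysed as log2(FPKM + 0.5), which understates differences of low genes, for genes with a mean of at least 0.2. Limma-trend (limma 3.58.1, R 4.3.3) was fitted to all 9 libraries with a mean for each group, with Benjamini-Hochberg adjustment over all genes tested. The script was tested on simulated data; the simulation's settings were revised after 2 earlier versions missed its limits, and in the last version false calls still exceeded the nominal share.

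The text names every gene that passed, alone or without 1 wild-type library; the 12 largest differences in each direction among genes without overlap and reaching a group mean of at least 1, leaving out predicted genes and receptor segments; up to 4 members with the largest differences of each list; and key genes. Of the 12 largest negative differences 1 is not reported here. Members of lists without overlap and examples for other lists were also named after their values were seen. The comparison and the 45 gene lists (24 of pathways, 21 of cell types) were chosen with earlier results of these data known. Alternatives changed the pseudocount (0.1, 1), filter, scaling, libraries fitted, weights and model. Promoters are RefSeq's.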

Additional observations from a re-analysis of the deposited data

How the results depend on the processing

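The count of 1 gene was the same with a pseudocount of 1 and was 0 with a pseudocount of 0.1, a mean of at least 1 FPKM, equal FPKM sums, quantile normalization, the 6 wild-type libraries alone, limma-voom on recovered reads, and, added after the data were seen, limma-voom at the deposited scaling and the length trend removed. Tmem150a averaged 0.987 FPKM over the 9 libraries, so the filter of at least 1 FPKM left it out and it was not tested there. With no filter 2 genes passed, both lower (Gm22395 and Gm24959). Leaving out a single library gave 0 to 14 genes, with 14 without WT OVA replicate 6, 1 without WT PBS replicate 3 and 0 without any of the others. Library quality weights gave 1582 genes (859 higher, 723 lower), with a weight of 8.46 on WT PBS replicate 1 against 0.515 and 0.546 on the other saline libraries, and 2230 genes with weights that had not converged (15.9 on that library). Without that library, at equal weights, 0 genes passed. The causes of these changes were not tested. No paired analysis was possible because replicates 1, 2 and 3 and replicates 5, 6 and 9 share no numbers. Of 195 named genes 82 had an unadjusted p below 0.05, and 0 of these had the other sign in any setting run. Many were named for large differences in these same data, so the 0 is largely set by that choice. At equal FPKM sums 11 of the 195 had the other sign, among them Il33 and Park7 (for Park7 0.306 at the deposited scaling and -0.00492 at equal sums). Signs were counted against 0, while the median of all genes at equal sums was -0.22. Both Il33 and Park7 lay above that median. Of 585 list medians under other settings, 59 moved by more than the spread between libraries, and 18 of 45 lists had the other sign at equal FPKM sums, also counted against 0. Depth limits Il13, Prg2 and other genes with few reads.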
